A study of Mus musculus with 2 samples.

Results

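Nuclear genes for subunits of the mitochondrial respiratory chain and ATP synthase were compared in Rosa26-Foxm1 and WT mouse lung. Members were taken by gene symbol: subunits of complex I (Nduf genes), complex II (Sdh), complex III (Uqcr and Cyc1), complex IV (Cox4 to Cox8) and complex V (Atp5), with cytochrome c (Cycs). The rule found 67 genes among the 13840 genes named on the array. Of these, 61 are subunits of the 5 complexes: 26 of complex I, 4 of complex II, 7 of complex III, 12 of complex IV and 12 of complex V. The other 6 are 4 complex I assembly factors, which the symbol rule takes in, Cycs and the transcribed pseudogene Ndufs5-ps. The pseudogene resembles Ndufs5, so its probe cannot be assigned to either with certainty, and it was counted in no complex.

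Both groups had received the same carcinogen protocol. A single dose of 3-methylcholanthrene (15 µg/g body weight) preceded 6 weekly injections of butylated hydroxytoluene, a lung tumour promoter. The first of these was 150 µg/g and the later ones 200 µg/g, and all were given into the peritoneum. The left lungs of 3 Rosa26-Foxm1 mice gave the pooled RNA of one array and those of 3 WT mice that of the other, in each case 12 weeks after the 3-methylcholanthrene. Rosa26-Foxm1 mice carry a transgene for the forkhead factor Foxm1, driven, by the name of the line, from the broadly active Rosa26 promoter. The WT mice were FVB/N males, and the sex, strain and age of the Rosa26-Foxm1 mice, like the age of the WT mice, are not given in the labels. No lung without the carcinogen was compared, so both groups share that treatment.

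The respiratory chain passes electrons from NADH (through complex I) and from succinate (through complex II) to ubiquinone, then through complex III and cytochrome c to complex IV, which reduces oxygen. Complexes I, III and IV pump protons across the inner membrane, and complex V, the ATP synthase, uses the proton gradient to make ATP. Complexes I, III, IV and V combine nuclear subunits with subunits encoded in mitochondrial DNA, whereas complex II is nuclear throughout. In lung, type II cells and club cells are known to be rich in mitochondria, while capillary endothelium relies more on glycolysis.

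Levels are intensities after quantile normalisation of both arrays, on a scale where the median probe is 1.00. That median was also the floor below which a probe has no measured level. Differences are log2 values, Rosa26-Foxm1 minus WT. With 1 array per group no test was possible, and precision is limited by having so few arrays. The only error that could be measured is the probe SD, the error of a difference from a single probe, estimated at 0.31 from 317 genes that had 2 or more measured probes, and at 0.23 from the brighter 158 of them. It leaves out the spread between mice and errors that all probes of an array share. Whole-lung RNA was measured, so fewer cells of a type and less RNA per cell cannot be told apart.

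Subunits were higher in Rosa26-Foxm1 lung by a small amount in complexes I, IV and V, with median differences of 0.34, 0.33 and 0.36. With correction for gene length these were 0.26, 0.12 and 0.28, and the mean of complex IV was 0.18. The median was 0.19 in complex III, but -0.010 with correction for gene length, and 0.04 in complex II, but -0.19 with no floor. Over all 9518 measured genes it was -0.06. Of the 65 measured members, 53 were above 0 (81.5%), against 43.9% of all measured genes. With correction for gene length 46 of the 65 were above 0, and the share of all measured genes is not given for that choice. At a size of 1.5-fold, 4 members (6.15%) were higher, against 7.08% of all measured genes, and 0 were lower, against 8.45%. The count of 4 was 8 in the deposited values and with median scaling, 6 with loess on intensity and 2 with correction for gene length. The shares of 7.08% and 8.45% hold for the quantile normalised values only. Shares of all measured genes under the other choices are not given here, so those counts cannot be set against them. Set against the probe SD of 0.31, 34 of the 65 differences were above it, 26 within it and 5 below its negative. Of all 9518 measured genes, 1819 were above it, 5379 within it and 2320 below its negative.

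**Figure D1:**
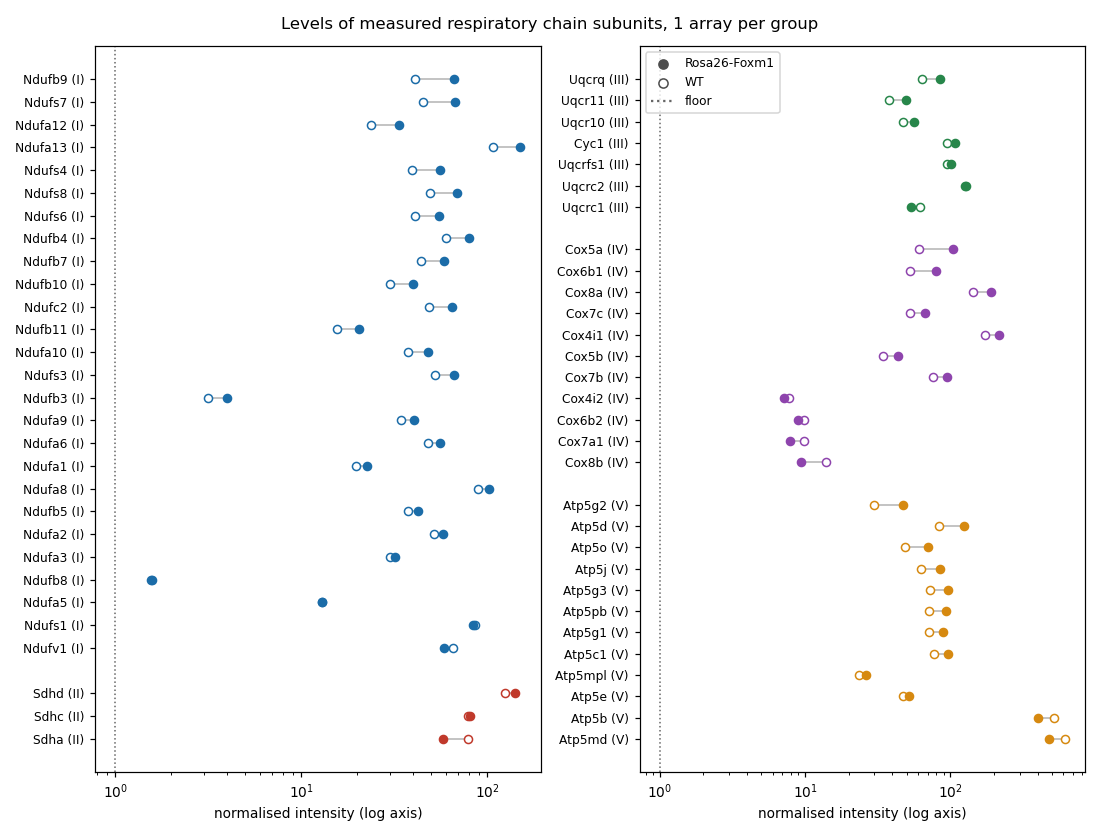
Normalised intensity (log axis) of the 59 measured subunits of complexes I to V, 1 row per gene with its complex in brackets, filled points for Rosa26-Foxm1 and open points for WT lung; the dotted line is the floor. Filled points lie to the right of open points in 48 of the 59 rows, and the exceptions include the tissue-restricted isoforms of complex IV and the brightest genes, Atp5md and Atp5b.

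**Figure D2:**
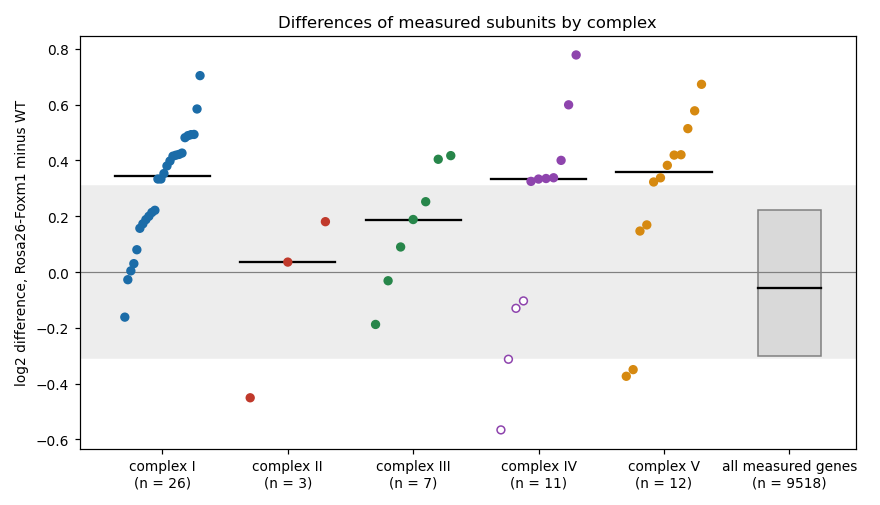
Log2 difference (Rosa26-Foxm1 minus WT) of each measured subunit by complex, with black lines at the medians, open points for tissue-restricted isoforms, a grey band at ± the probe SD of 0.31, and at the right the middle 50% and median of all measured genes. Complexes I, IV and V have medians of 0.34, 0.33 and 0.36, while complex II, with 3 measured genes, has 0.04.

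The members were bright. In 56 of the 59 measured subunits both arrays exceeded the 75th percentile of probes, an intensity of 7.47. Their normalised intensities ran from 1.59 to 474 in Rosa26-Foxm1 lung, with a median of 64.4, and from 1.56 to 615 in WT lung, with a median of 49.3. Measured genes above that percentile on at least 1 array had a median difference of -0.07 over 5495 genes. Of the 61 subunits, 2 were not measured. Sdhb, the iron-sulfur subunit of complex II, had deposited intensities of 0.224 in Rosa26-Foxm1 and 0.252 in WT lung, both below the floor. Cox7b2, an isoform best known from testis, had 0.609 in Rosa26-Foxm1 and 0.831 in WT lung. Nearly every cell type uses Sdhb, so the low signal of its single probe was not read as a low level of the gene.

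Complex I takes electrons from NADH in its peripheral arm and pumps protons in its membrane arm. All 26 of its subunits with a probe were measured, 24 were above 0, and the middle 50% of differences ran from 0.18 to 0.43. Ndufb9, an accessory subunit of the membrane arm, had 66.5 in Rosa26-Foxm1 and 40.9 in WT lung. At 1.63-fold higher (0.70) it was the 1 gene of the complex past 1.5-fold. Ndufs7, a core subunit that carries an iron-sulfur cluster near the ubiquinone site, followed with 67.4 in Rosa26-Foxm1 and 45.0 in WT lung (0.58). Ndufa12, an accessory subunit, had 33.5 in Rosa26-Foxm1 and 23.8 in WT lung (0.49). Next to it stood Ndufa13, also known as GRIM-19, at 0.49 and 151 in Rosa26-Foxm1 against 107 in WT lung.

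The core subunits of complex I, which are conserved from bacteria and form its catalytic part, lay on both sides of 0. Ndufs8 had 68.8 in Rosa26-Foxm1 and 49.3 in WT lung (0.48), and Ndufs3 had 66.4 in Rosa26-Foxm1 and 52.7 in WT lung (0.33). Like Ndufs7, they belong to the module that reduces ubiquinone. In the module that oxidises NADH, Ndufv1, which binds the flavin, had 58.8 in Rosa26-Foxm1 and 65.8 in WT lung (-0.16). Ndufs1, the largest iron-sulfur subunit, had 84.0 in Rosa26-Foxm1 and 85.7 in WT lung (-0.03, and above 0 under 4 of 9 other processing choices). Both differences are smaller than the probe SD. These were the 2 genes of complex I below 0 as processed here. The 21 accessory subunits were all above 0, with a median of 0.35 and a range from 0.00 to 0.70, although Ndufa2, Ndufa3, Ndufa5 and Ndufb8 were below 0 under at least 1 other processing choice.

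By position in the complex, the 14 measured membrane arm subunits had a median of 0.37, the 5 of the ubiquinone module 0.33, and the 7 of the NADH module 0.21. No test was made between these positions. The smallest accessory difference was that of Ndufa5, with 13.0 in Rosa26-Foxm1 and 12.9 in WT lung (0.00). Ndufb8 rests on a probe near the floor, with 1.59 in Rosa26-Foxm1 and 1.56 in WT lung (0.03). The 4 complex I assembly factors, which help to build the complex without staying in it, had a median of 0.14. Ndufaf5 was at 0.38, Ndufaf1 at 0.17, Ndufaf4 at 0.10 and Ndufaf7 at -0.09.

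Complex II, succinate dehydrogenase, also belongs to the citric acid cycle. Its catalytic flavoprotein Sdha had 57.9 in Rosa26-Foxm1 and 79.1 in WT lung, 1.37-fold lower in Rosa26-Foxm1 lung (-0.45). The membrane anchors were on the other side of 0. Sdhc had 80.5 in Rosa26-Foxm1 and 78.5 in WT lung (0.04), and Sdhd had 142 in Rosa26-Foxm1 and 125 in WT lung (0.18). With 3 measured genes the median of 0.04 is the value of Sdhc alone.

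Complex III passes electrons from ubiquinol to cytochrome c, and 5 of its 7 measured genes were above 0. With correction for gene length 3 were, since Cyc1 was then at -0.02 and Uqcrfs1 at -0.06. The small accessory subunits were the highest. Uqcrq had 85.1 in Rosa26-Foxm1 and 63.7 in WT lung (0.42), Uqcr11 had 49.9 in Rosa26-Foxm1 and 37.7 in WT lung (0.40), and Uqcr10 had 56.3 in Rosa26-Foxm1 and 47.3 in WT lung (0.25). The redox subunits lay within the probe SD, with 0.19 for Cyc1, which encodes cytochrome c1 (108 in Rosa26-Foxm1 and 94.8 in WT lung), and 0.09 for the Rieske protein gene Uqcrfs1 (101 in Rosa26-Foxm1 and 95.3 in WT lung). The core proteins, which carry no redox centre, were below 0. Uqcrc1 had 53.9 in Rosa26-Foxm1 and 61.4 in WT lung (-0.19). Uqcrc2 had 126 in Rosa26-Foxm1 and 129 in WT lung (-0.03, above 0 under 3 of 9 other processing choices). Cycs, the mobile carrier between complexes III and IV, gave 0.31 by one probe (79.2 in Rosa26-Foxm1 and 64.0 in WT lung) and 0.52 by the other (75.6 in Rosa26-Foxm1 and 52.6 in WT lung).

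Complex IV, cytochrome c oxidase, split by isoform. All 7 measured genes of the general form were above the probe SD, from 0.32 to 0.78 with a median of 0.34, whereas all 4 measured tissue-restricted isoforms were below 0, from -0.57 to -0.10 with a median of -0.22. None of these 11 genes changed sign under any of the 9 other processing choices. With correction for gene length, however, 5 of the 7 general genes came within the probe SD, at 0.11 for Cox5b, 0.12 for Cox7c, 0.19 for Cox8a, 0.20 for Cox4i1 and 0.21 for Cox7b. Cox5a, a subunit on the matrix side, had 104 in Rosa26-Foxm1 and 60.5 in WT lung. At 1.71-fold higher (0.78) it was the highest of all members. Cox6b1, at the cytochrome c side of the enzyme, had 80.4 in Rosa26-Foxm1 and 53.0 in WT lung (1.51-fold, 0.60).

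In the isoform pairs the general and the restricted gene differed in sign. Cox8a had 190 in Rosa26-Foxm1 and 144 in WT lung (0.40), and its heart, skeletal muscle and brown fat counterpart Cox8b had 9.37 in Rosa26-Foxm1 and 13.9 in WT lung (-0.57). Cox8b was the lowest of all members, at 1.48-fold lower in Rosa26-Foxm1 lung. Cox4i1 had 217 in Rosa26-Foxm1 and 172 in WT lung (0.34), and Cox4i2, an oxygen-responsive isoform known from lung, had 7.22 in Rosa26-Foxm1 and 7.75 in WT lung (-0.10). Cox6b1 was at 0.60 and Cox6b2, known from testis, at -0.13 with 8.93 in Rosa26-Foxm1 and 9.78 in WT lung. Cox7a1, the heart and muscle isoform, had 7.87 in Rosa26-Foxm1 and 9.78 in WT lung (-0.31), and its general counterpart was not analysed here. The values of Cox4i2 and Cox6b2 lie within the probe SD. The remaining general subunits were close together, Cox7b at 0.32, Cox5b at 0.33 and Cox7c at 0.34.

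Lung samples can hold cardiac muscle, which sheathes the pulmonary veins in mice. Of 13 cardiac muscle markers, 12 were measured, 5 were above 0 and 7 below, and their median was -0.14. Their summed level was 792 in Rosa26-Foxm1 and 1053 in WT lung, a sum in which the brightest genes weigh most. Myh6, the atrial and adult cardiac myosin, had 194 in Rosa26-Foxm1 and 377 in WT lung (-0.96). It was the lowest, followed by Myl3 (-0.43) and Actc1 (-0.32), while Nppa (0.40), Sln (0.32) and Tnni3 (0.12) were the highest. The 7 measured of 12 skeletal muscle markers had a median of 0.24 and summed levels of 39.0 in Rosa26-Foxm1 and 38.9 in WT lung. Of 8 brown fat markers 3 were measured, with summed levels of 13.6 in Rosa26-Foxm1 and 10.01 in WT lung. Its defining genes Ucp1, Cidea and Elovl3 were below the floor on both arrays. The part of muscle tissue in the values of Cox8b and Cox7a1 was not tested.

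Complex V consists of the catalytic F1 head, a membrane sector with a ring of c subunits, and a stalk that joins them. Of its 12 measured genes 10 were above 0. Identical mature c subunits are made from 3 genes, and all 3 were above 0. Atp5g2 had 47.4 in Rosa26-Foxm1 and 29.7 in WT lung (1.59-fold, 0.67), Atp5g3 had 97.1 in Rosa26-Foxm1 and 72.6 in WT lung (0.42), and Atp5g1 had 89.6 in Rosa26-Foxm1 and 70.9 in WT lung (0.34). In the stalk, Atp5o had 70.2 in Rosa26-Foxm1 and 49.2 in WT lung (0.51), and Atp5pb was at 0.38. Atp5j was at 0.42 by its brighter and 0.37 by its dimmer probe.

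The F1 subunits did not share a direction. Atp5d, the delta subunit, had 124 in Rosa26-Foxm1 and 83.3 in WT lung (0.58), the gamma subunit gene Atp5c1 was at 0.32 and the epsilon subunit gene Atp5e at 0.15 (-0.06 with correction for gene length). Atp5b, the catalytic beta subunit, had 403 in Rosa26-Foxm1 and 514 in WT lung, 1.27-fold lower in Rosa26-Foxm1 lung (-0.35). Atp5md, a small membrane subunit involved in dimer formation, had 474 in Rosa26-Foxm1 and 615 in WT lung (-0.37). These were the brightest members, and their differences depended on the normalisation: in the deposited values Atp5b had 440 in Rosa26-Foxm1 and 466 in WT lung (-0.08), and Atp5md had 523 in Rosa26-Foxm1 and 548 in WT lung (-0.07).

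Across complexes, 12 of the 65 measured members were at or below 0. They were the 4 restricted complex IV isoforms, the assembly factor Ndufaf7, and the subunits Atp5md, Atp5b, Sdha, Uqcrc1, Ndufv1, Uqcrc2 and Ndufs1. The median of complex I minus that of complex V was -0.02, minus that of complex IV 0.01, minus that of complex III 0.15, and minus that of complex II 0.31. The last 2 gaps rest on 7 genes of complex III and 3 of complex II, and no test of any gap was possible.

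Gene length on the genome moved with the difference over all genes. In the shortest of 5 equal classes (up to 6.85 kb) the median was 0.14 over 1903 genes, and in the longest it was -0.21 over 1903. Spearman's rho of difference and length was -0.27 across the 9514 measured genes with a length, and 0.08 across the 59 measured subunits; genes of an array share its errors and are not independent replicates. The 29 subunits in the shortest class had a median of 0.33, with 25 above 0, against 63.6% above 0 for all genes of that class. In the next class 19 subunits also had a median of 0.33, against -0.01 over 1903 genes. After correction for gene length the medians were 0.26 in complex I, 0.28 in complex V, 0.12 in complex IV, 0.04 in complex II and -0.010 in complex III, and 9 of the 65 members changed sign. The correction lowered the medians of complexes III and IV by more than those of complexes I and V, and the part of gene length in these differences was not tested otherwise.

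**Figure D3:**
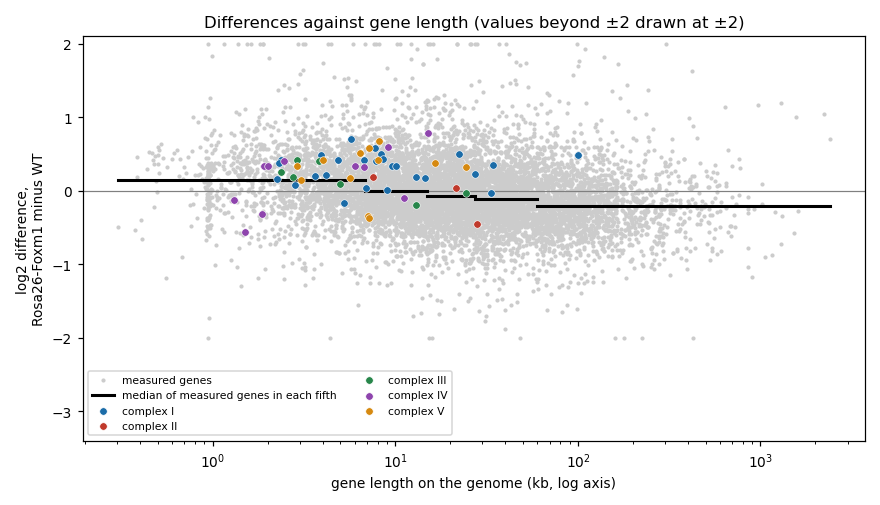
Log2 difference (Rosa26-Foxm1 minus WT) against gene length on the genome (kb, log axis) for measured genes (grey) and subunits of complexes I to V (coloured), with black lines at the median of all genes in each of 5 equal length classes. The medians of all genes step down with length, while most subunits lie above the line of their own class.

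**Figure D4:**
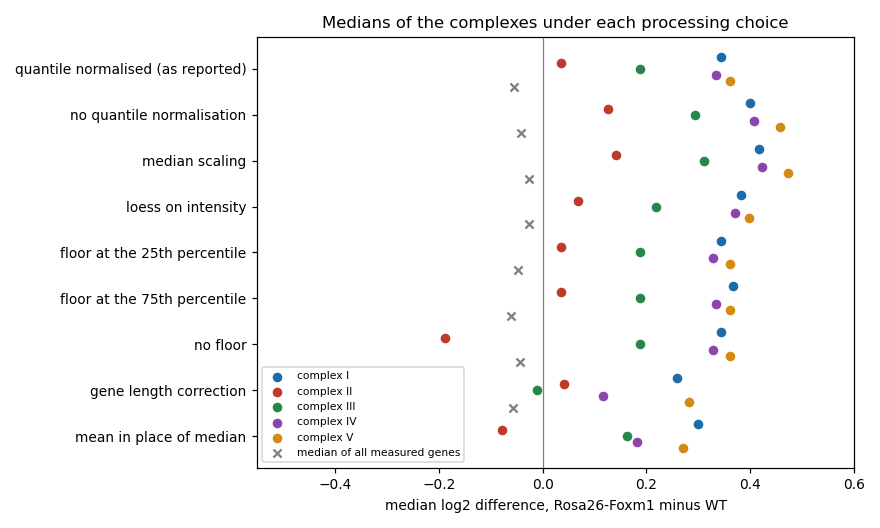
Median log2 difference (Rosa26-Foxm1 minus WT) of each complex under each processing choice, with crosses at the median of all measured genes where it was computed. Complexes I, IV and V stay above 0 in every row shown, complex III reaches -0.010 with correction for gene length, and complex II changes sign with no floor and as a mean.

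Other mitochondrial genes showed smaller medians than complexes I, IV and V. With correction for gene length the gap to complex IV was small, at 0.12 against 0.09 for assembly factors of complexes II to V. Complex II, at 0.04, and complex III, at -0.010, were then below that list. Assembly factors of complexes II to V had a median of 0.07 over 21 measured genes, 11 of them above 0. At 1.5-fold, 2 were higher (9.52%), against 7.08% of all measured genes, and 0 were lower, against 8.45%. The higher ones were Bcs1l and Sdhaf4. Bcs1l, a complex III assembly factor near the floor, had 2.08 in Rosa26-Foxm1 and 1.19 in WT lung (0.81). Sdhaf4 had 16.8 in Rosa26-Foxm1 and 11.1 in WT lung (0.60). Coa6, a copper handling factor of complex IV, was at 0.48. At the other end were Uqcc1 (-0.19), Atpaf2 (-0.18) and Atpaf1 (-0.17), which serve complexes III and V.

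The 14 measured genes of pyruvate dehydrogenase and the citric acid cycle had a median of -0.01, above 0 under 4 other processing choices. Of them 7 were above 0. At 1.5-fold, 0 were higher, against 7.08% of all measured genes, and 2 were lower, against 8.45%. Pdha1, the catalytic subunit of pyruvate dehydrogenase, had 8.68 in Rosa26-Foxm1 and 14.1 in WT lung (-0.69). Dlst, of the 2-oxoglutarate dehydrogenase complex, had 9.59 in Rosa26-Foxm1 and 15.0 in WT lung (-0.65). Cs, citrate synthase, often used as a marker of mitochondrial mass, had 154 in Rosa26-Foxm1 and 231 in WT lung (-0.58). The highest were Mdh2 (0.34), Suclg1 (0.13) and Ogdh (0.12).

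Carriers and pores of the mitochondrial membranes had a median of 0.04 over 13 measured genes. None was past 1.5-fold, against 7.08% higher and 8.45% lower among all measured genes. The import receptor Tomm20 was at 0.57, with 165 in Rosa26-Foxm1 and 111 in WT lung. The citrate carrier Slc25a1 (0.32) and the phosphate carrier Slc25a3 (0.22) came next, and Vdac1 (-0.36), Slc25a12 (-0.31) and Slc25a20 (-0.17) were the lowest. Regulators of mitochondrial biogenesis had a median of 0.01 over 13 measured genes, below 0 under 6 other processing choices. None of them was past 1.5-fold, against the same shares of all measured genes. The coactivators Ppargc1a and Ppargc1b were at 0.55 and 0.52 near the floor, with 2.04 and 3.50 in Rosa26-Foxm1 and 1.39 and 2.45 in WT lung. The DNA polymerase accessory subunit gene Polg2 was at 0.37, and Polg (-0.44), Polrmt (-0.35) and Nrf1 (-0.21), which encode the mitochondrial DNA and RNA polymerases and a transcription factor of respiratory genes, were the lowest. The 13 mitochondrially encoded subunits were not analysed here.

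**Figure D5:**
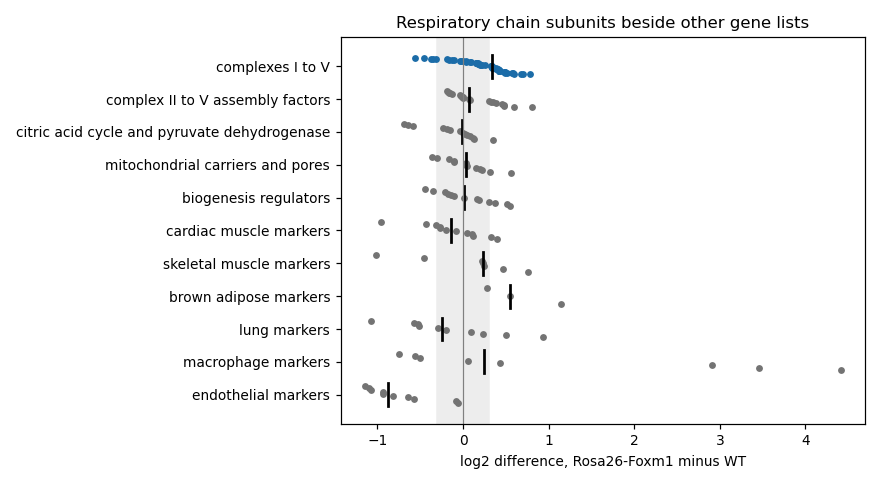
Log2 difference (Rosa26-Foxm1 minus WT) of each measured gene in complexes I to V (top row) and in the other gene lists, with black lines at the medians and a grey band at ± the probe SD of 0.31. The subunits centre on 0.33, the other mitochondrial lists between -0.01 and 0.07, and the endothelial markers on -0.87.

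Cell type markers moved beside these values. All 10 lung markers were measured, with summed levels of 7756 in Rosa26-Foxm1 and 9042 in WT lung, so the tissue label holds on both arrays. Of them 4 were above 0 and 6 below, with a median of -0.25. The surfactant protein genes ran both ways, with Sftpd at 0.94 and Sftpa1 at 0.51, and Sftpc at -0.52 and Sftpb at -0.29. The club cell gene Scgb1a1 was at -0.53. All 10 endothelial markers were measured and below 0, with a median of -0.87 and summed levels of 1393 in Rosa26-Foxm1 and 2189 in WT lung. They were not uniform, with 8 below the negative of the probe SD and 2 within it. Calcrl (-1.15), Epas1 (-1.10) and Pecam1 (-1.08) were the lowest, and Egfl7 (-0.06), Ramp2 (-0.08) and Cldn5 (-0.58) the nearest to 0. Of 10 macrophage markers 8 were measured and 5 were above 0, with summed levels of 1817 in Rosa26-Foxm1 and 1699 in WT lung. These markers ran both ways, with Gpnmb (4.42), Mmp12 (3.46) and Trem2 (2.91) the highest and Marco (-0.75), Adgre1 (-0.56) and Lyz2 (-0.50) the lowest. The value of Marco is a limit set by the floor, with 0.73 in Rosa26-Foxm1 lung below it and 1.69 in WT lung. Whether the cell makeup of the samples plays a part in the differences of the complexes was not tested. Foxm1 itself had 1.23 in Rosa26-Foxm1 and 1.13 in WT lung (0.11), both near the floor. The labels do not say whether its probe also reads the transgene.

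The promoters of the subunit genes were searched for short motifs of factors known to bind respiratory gene promoters. Windows from 250 bases before to 50 after each transcription start, from RefSeq on GRCm38.p6, were found for 51 of the 61 subunit genes (55 windows). On either strand, the YY1 letters AAGATGGC were in 8 of the 55 windows (14.5%), against 3.97% of the 9882 windows of measured genes. The NRF1 letters GCGCATGCG were in 7.27% of subunit windows against 3.22%, the ERR letters TCAAGGTCA in 3.64% against 0.304%, and the ETS letters CCGGAAGT in 5.45% against 7.33%. The NRF1 and ERR shares rest on 4 and 2 windows. The 8 genes with the YY1 letters had a median difference of 0.40, and the 41 measured subunits with a window and without them 0.33. Medians with the letters were 0.30 for NRF1 (4 genes), 0.40 for ETS (3 genes) and 0.30 for ERR (2 genes). Without the letters they were 0.33 for each. No gap was tested. The shares describe sequence, and a part of these factors in the differences was not tested.

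These 30-base stretches show all 8 YY1 matches, on the strand of the gene, with the match in capitals. In 6 genes the match begins 22 to 38 bases after the start, where its letters ATG could also be a start codon, and translation starts were not marked in the table used. A match is a description of letters and not a binding site.
Ndufs7, chr10:80249462-80249491, plus strand: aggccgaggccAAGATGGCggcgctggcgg
Ndufs4, chr13:114388045-114388074, minus strand: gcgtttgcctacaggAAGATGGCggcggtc
Ndufs6, chr13:73328433-73328462, minus strand: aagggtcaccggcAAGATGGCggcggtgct
Ndufa9, chr6:126849097-126849126, minus strand: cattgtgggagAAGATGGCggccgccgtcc
Ndufa3, chr7:3617384-3617413, plus strand: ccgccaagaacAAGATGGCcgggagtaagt
Ndufb8, chr19:44555393-44555422, minus strand: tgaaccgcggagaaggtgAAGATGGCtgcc
Atp5j, chr16:84835046-84835075, minus strand: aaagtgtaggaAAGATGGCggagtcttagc
Atp5pb, chr3:105959248-105959277, minus strand: atgtgcgagcgGCCATCTTgctcctgcccc

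The 4 NRF1 matches lie in Atp5g2 (0.67), Uqcr11 (0.40) and Ndufa8 (0.19), which were above 0, and in Uqcrc1 (-0.19), which was below 0. They are shown in the same way because genes on both sides of 0 hold the same letters. The matches lie before the start in Atp5g2, Uqcr11 and Ndufa8 and 30 bases after it in Uqcrc1. In Atp5g2 and Uqcrc1 a forward and a reverse match overlap. There the capitals cover both, and the pair was counted as a single match.
Atp5g2, chr15:102671071-102671100, minus strand: tggctccggccGCGCATGCGCagagccttc
Uqcr11, chr10:80406808-80406837, minus strand: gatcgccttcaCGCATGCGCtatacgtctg
Ndufa8, chr2:36049329-36049358, minus strand: gtcgctggagaCGCATGCGCagatggtacc
Uqcrc1, chr9:108936667-108936696, plus strand: gactccgctctGCGCATGCGCagcgcggct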

How the data were processed

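Each of the 33012 probes has 1 linear intensity per array in the deposited table, and each column has a median of 1.00. How images were read, background was removed and arrays were scaled by the authors is not stated in the labels. Per the labels' protocols, cRNA carried digoxigenin, added with a chemiluminescent kit of Applied Biosystems.

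Gene names came from the platform annotation after an update by gene ID to RefSeq symbols (13832 of 13840 genes matched). The arrays were quantile normalised, values under the 50th percentile were set to it, and the result was put on the log2 scale. Genes above that floor on 1 or both arrays count as measured, by their brightest probe. Medians and counts at 1.5-fold were set beside all measured genes. Named were all complex II genes, Cyc1, Cycs, isoform pairs, core subunits and members past 1.5-fold. Up to 3 genes at each end of every complex and of most lists were named too. Other genes were added for context after their values were seen. Members and lists were chosen with earlier results of these data known. Loess (span 0.3) used statsmodels 0.14.6 in Python 3.11.15. The code was tested on simulated data.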

Additional observations from a re-analysis of the deposited data

How the results depend on the processing

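With 1 array per group, no replicate could be left out, and no paired analysis was possible because each group has a single sample. A median was taken as changed where its sign changed, or where it differed by at least a set limit. That limit was the probe SD divided by the square root of the number of genes. It serves description only, since genes of an array are not independent replicates. A count was taken as changed where it differed by more than 1.5 times. Median scaling gave 0.42 in complex I, 0.31 in complex III and 0.47 in complex V, and the deposited values gave 0.46 in complex V. Correction for gene length gave 0.26 in complex I, -0.0102 in complex III and 0.12 in complex IV. As means, complexes II, IV and V were at -0.0783, 0.18 and 0.27, and with no floor complex II was at -0.19, because the dim Sdhb then enters. Of the members, 8 were at least 1.5-fold higher with the deposited values and with median scaling, and 2 with correction for gene length. That correction put 1 member at least 1.5-fold lower. At a size of 2-fold 0 were higher, and at 1.5-fold loess on intensity gave 6, at the limit for a changed count. Shares of all measured genes under these choices are not given here, so these counts have no share beside them. Over the complex medians and member counts, 64 values under other choices stayed within the limits, with no change of sign. The median of citric acid cycle genes was 0.0343 in the deposited values, 0.0504 with median scaling, 0.0177 with loess on intensity and 0.00208 with the floor at the 75th percentile. That of biogenesis regulators was -0.0208, -0.00470 and -0.0425 with deposited values, median scaling and length correction, -0.11 with a floor at the 25th percentile or none, and -0.20 at the 75th. The median of carriers and pores was 0.19 in the deposited values and 0.21 with median scaling. For these shifts the cause was not tested. Counting Ndufa4 and its paralogue with complex I, and leaving out Cox7a2l, could not be run because these genes were not analysed here.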
